A study of Sus scrofa with 12 samples.

Results

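The insulin-like growth factor family was followed here in bulk RNA of the striatum, the main input region of the basal ganglia, in newborn pigs (Sus scrofa). The family was listed by name as 10 genes, of which the authors' deposited table names 8 among 25880 genes in the count table: the ligand gene IGF1 and the binding protein genes IGFBP1 to IGFBP7. The names IGF2 and IGF1R were dropped because that table does not carry them. The family was selected on the measured DHCA against Sham difference of IGFBP3, already known to pass the test of this contrast, so the differences of the members between groups are a description and support nothing further.

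The DHCA group (n = 6) was labelled as deep hypothermic cardiac arrest. Its neonatal piglets had 4% isoflurane, a sternotomy and cardiopulmonary bypass. They were cooled to 18 °C, kept in arrest for 30 min, brought back to 37 °C and allowed to recover over 6 h. The Sham group (n = 6) was kept under 4% isoflurane, so surgery, bypass, cooling and arrest are all part of the contrast and cannot be told apart. The labels state a recovery time for DHCA alone, so the hour of sampling cannot be told apart from the procedure either.

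IGF1 and IGF2 are secreted growth factors that signal through the receptor tyrosine kinase IGF1R, which acts on the insulin receptor substrates and from there on PI3K-AKT and RAS-MAPK signalling. The binding proteins hold the growth factors outside the cell, which prolongs their life and controls their access to the receptor, and proteases release the growth factors by cutting the binding proteins. In the developing brain the system is known for supporting the growth, survival and myelination of neural cells.

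Library totals ranged from 1377809 (Sham 5) and 2515816 (Sham 1) to 12933536 (Sham 6) counts. Mitochondrially encoded genes held 4.01% of counts in Sham 1 and 7.30% in Sham 5, against 10.6% to 26.3% in the other 10 libraries. Marker shares here and below are percent of the scaled library size, not of raw counts. The library labelled Sham 4 went against its tissue label. In it 17 striatal spiny neuron markers held 0.0413%, against 0.336% to 0.781% in the other 11. There 11 cortical pyramidal neuron markers held 0.302%, against 0.0363% to 0.101%. Values without Sham 1, Sham 4 or Sham 5 are therefore given beside results below that shifted when these libraries were left out. RNA came from whole tissue, so fewer cells of a type and less RNA per cell cannot be told apart in any value below.

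IGFBP3 was the member that stood apart between the groups, IGFBP5 and IGFBP7 had the highest Sham levels per kb of the members, and IGF1 and IGFBP1 were close to the limit of detection. Of the 8 members, 6 (IGFBP2 to IGFBP7) passed the filter on low counts and were tested. Of these 6, 1 passed the edgeR quasi-likelihood test at a Benjamini-Hochberg adjusted p under 0.05, beside 26 of all 14004 tested genes (0.186%). With the DESeq2 Wald test 1 of the 6, also IGFBP3, passed, beside 1.1% of the genes given an adjusted p. The groups did not overlap in 1 of the 6, beside 0.993% of all tested genes. Of the 6 log2 fold changes 2 were positive and 4 negative, with a median of -0.13, beside -0.003 over all tested genes. IGFBP3's own call led to the choice of the family, so these shares are not read as a result about it.

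**Figure D1:**
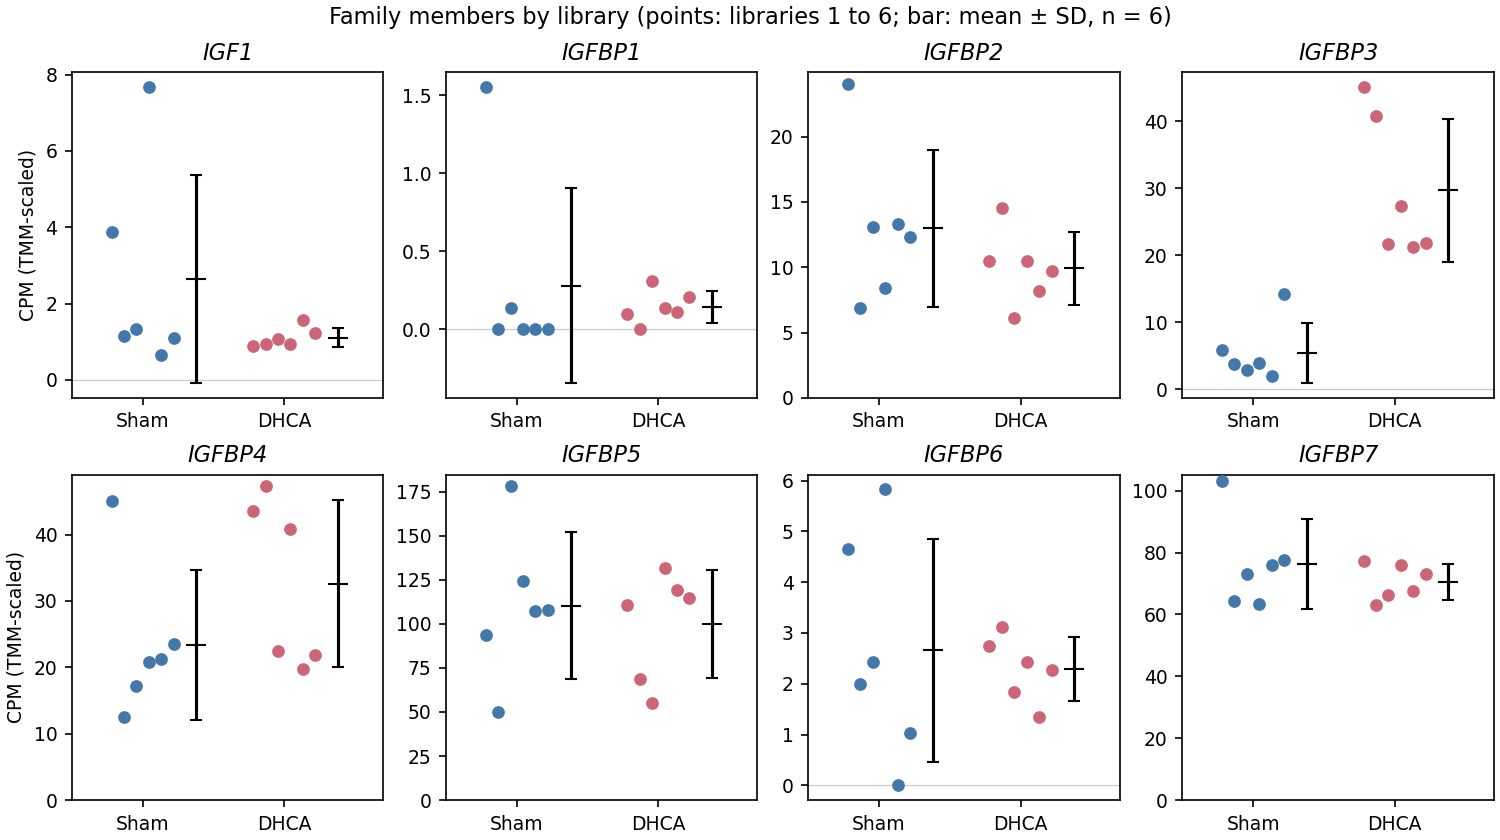
CPM (read counts relative to the TMM-scaled library size, vertical axis) of the 8 members in each of 6 Sham and 6 DHCA libraries, with the mean and SD of each group beside the points. All 6 DHCA values of IGFBP3 (21.3 to 45.1 CPM) lie above all 6 Sham values (2.00 to 14.3 CPM), while the groups overlap in the other 7 panels.

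The ligand gene IGF1 (ENSSSCG00000000857, Sscrofa11.1 chromosome 5, 81776422 to 81848048) was scarce. Its counts were 1 to 54 per library, 104 in all over Sham and 50 over DHCA. As CPM, counts relative to the scaled library size, it ran in Sham from 0.666 through a median of 1.26 to 7.68, and in DHCA from 0.882 through 1.013 to 1.57 CPM. The highest value belonged to the library labelled Sham 4, the one with cortical neuron markers, and the next (3.88 CPM) to Sham 1; the other 4 Sham values, 0.666 to 1.35 CPM, overlapped those of DHCA. The group means were 2.64 ± 2.72 CPM in Sham and 1.11 ± 0.258 CPM in DHCA (SD, n = 6 each). IGF1 did not pass the filter on low counts, and in an edgeR fit without that filter its log2 fold change, DHCA minus Sham, was -1.23 (SE 0.51, adjusted p = 0.595). In refits chosen after seeing the data it was -0.42 without Sham 4 (SE 0.40, adjusted p = 0.757), -0.059 without Sham 1 and Sham 4, and -0.13 without Sham 1, Sham 4 and Sham 5.

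IGF2, the other ligand gene, was not analysed here. IGF1R, the receptor gene, is not named in the authors' table, but the reference table of gene names gives its symbol to ENSSSCG00000030560 (chromosome 1, 137387825 to 137692307), and it is added for its role. It ran from 87.5 through a median of 111 to 134 CPM in Sham and from 92.7 through 105 to 118 CPM in DHCA. The DHCA values lay within the Sham range. Its log2 fold change, DHCA minus Sham throughout, was -0.046 (SE 0.15, edgeR adjusted p = 0.944). Without Sham 6 it was 0.024.

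IGFBP3, which encodes the main carrier of insulin-like growth factors in blood, was higher in every DHCA library than in any Sham library. In Sham it ran from 2.00 CPM (3 counts, Sham 5) through a median of 3.90 to 14.3 CPM (195 counts, Sham 6). In DHCA it ran from 21.3 through 24.6 to 45.1 CPM. Within Sham, 5 libraries lay at or below 5.82 CPM and Sham 6 stood above them. Within DHCA, DHCA 1 and DHCA 2 had 45.1 and 40.8 CPM and the other 4 had 21.3 to 27.4 CPM. The group means were 5.45 ± 4.51 and 29.7 ± 10.6 CPM (SD, n = 6 each), and the fitted log2 fold change was 2.35 (SE 0.41), a 5.10-fold difference.

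The IGFBP3 log2 fold change stayed between 2.05 and 2.99 over the 23 other fits that were run, and its adjusted p was under 0.05 in 10 of them. With all 12 libraries the edgeR adjusted p was 0.0344, over all 14004 genes. Leaving out 1 library at a time gave log2 fold changes of 2.20 to 2.99. The adjusted p stayed under 0.05 when the library left out was Sham 2 (0.0497) or Sham 6 (log2 fold change 2.99, adjusted p = 0.00124). It missed the threshold when that library was Sham 1 (0.0519), Sham 3 (0.105), Sham 4 (0.0903) or Sham 5 (0.102). Leaving out a DHCA library gave 0.0932 (DHCA 1), 0.11 (DHCA 2), 0.0638 (DHCA 3), 0.0772 (DHCA 4), 0.0518 (DHCA 5) and 0.051 (DHCA 6). Without Sham 1 and Sham 5 the log2 fold change was 2.22 (adjusted p = 0.122), and without Sham 1, Sham 4 and Sham 5 it was 2.05 (adjusted p = 0.31). The authors' deposited table gives IGFBP3 a log2 fold change of 2.53 (standard error 0.38, adjusted p = 2.78e-08).

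**Figure D2:**
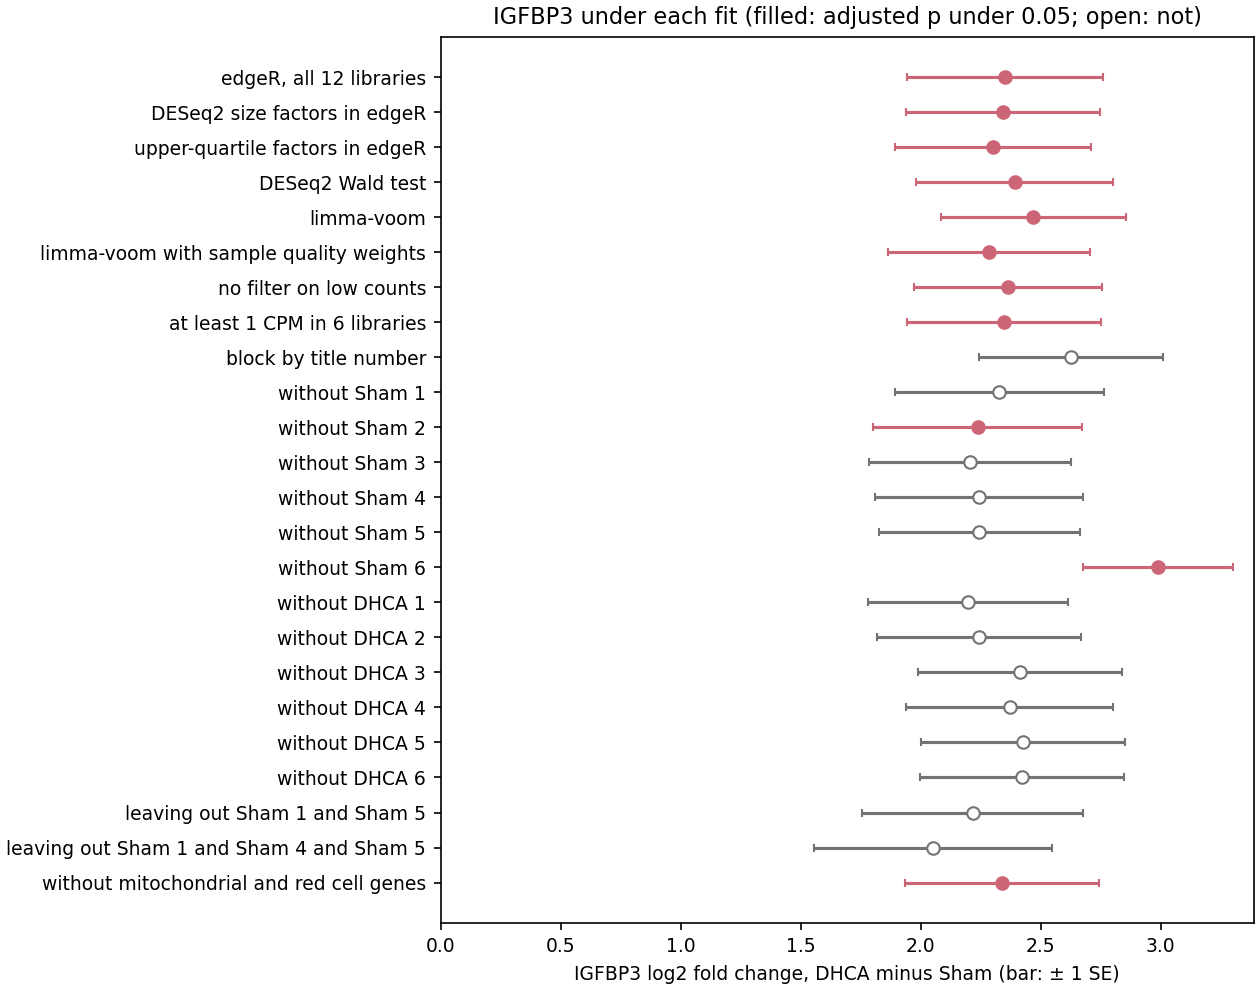
IGFBP3 log2 fold change, DHCA minus Sham (horizontal axis, bars of 1 SE on each side), under each fit that was run (vertical axis). Every estimate lies between 2.05 and 2.99; filled points have an adjusted p under 0.05 and open points do not.

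Binding protein genes are also expressed by vessel-associated cells, whose marker shares are given beside IGFBP3. Of the 14 listed endothelial markers, 12 had a count (EGFL7 had 0 in all 12 libraries). That list held 0.0321% to 0.0615% of the scaled library size in Sham and 0.0359% to 0.041% in DHCA (exact 2-sided permutation test, p = 0.277, adjusted p = 0.534 over 14 lists). The 12 mural cell markers held 0.0336% to 0.0565% in Sham and 0.0414% to 0.0516% in DHCA (exact permutation p = 0.665, adjusted p = 0.825). The 13 fibroblast and meningeal markers held 0.0347% to 0.0602% in Sham and 0.035% to 0.0424% in DHCA (exact permutation p = 0.026, adjusted p = 0.152). PDGFRA of this list (means of 123 CPM in Sham and 121 in DHCA) also stands in the list of oligodendrocyte precursor markers. So does CSPG4 of the mural list (58.8 and 70.8 CPM). Of 10 red cell genes, 6 were in the table and held 0.00403% to 0.0244% in Sham and 0.0027% to 0.00676% in DHCA (exact permutation p = 0.00866, adjusted p = 0.121). Of the 14 lists 0 passed after adjustment (3 at an unadjusted p under 0.05), and the part of fibroblast and red cell genes in the result was not tested. Without Sham 1 the red cell list passed (exact permutation adjusted p = 0.0303), and without Sham 2 the fibroblast and meningeal list (0.0303), the red cell list (0.0404) and that of thalamus and hypothalamus (0.0404) passed, each lower in DHCA. These sums do not stand for every marker. Of the endothelial markers, CDH5 (means of 30.9 CPM in Sham and 49.4 in DHCA), PECAM1 (29.0 and 35.8), ROBO4 (26.4 and 35.4) and FLT1 (75.8 and 86.9) were higher in DHCA. The other endothelial markers with a count were lower, among them VWF (134 and 82.1), KDR (45.3 and 29.6) and TIE1 (35.7 and 24.5). HBB held most of the red cell share (mean 121 CPM in Sham, 39.0 in DHCA). ALAS2 (5 and 2.41 CPM), HBM (0.653 and 0.167) and AHSP (0.543 and 0.313) also had lower means in DHCA. The means of SLC4A1 (1.29 and 1.27 CPM) and HBQ1 (1.502 and 1.405) lay close together. Of the fibroblast and meningeal markers, OGN (28.7 and 37.6 CPM) and ASPN (4.82 and 7.35) had higher means in DHCA. All others of that list had lower means, among them COL1A1 (87.1 and 44.5), COL1A2 (130 and 87.3) and COL3A1 (83.9 and 54.4).

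IGFBP3 and IGFBP1 lie across each other on chromosome 18. The counted IGFBP3 model (ENSSSCG00000038783) runs from 50000101 to 50035762 on the plus strand, and that of IGFBP1 (ENSSSCG00000016728) from 49984804 to 50022799 on the minus strand. Their spans overlap but they share 0 exon bases. The IGFBP3 model includes 7 exons shorter than 50 bases, and RefSeq places the gene at 50002921 to 50009425 of the same build, clear of its IGFBP1 at 50018487 to 50022799. Counting used no strand option, so reads in the stretch where the spans overlap were assigned by exon alone.

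IGFBP1, a binding protein gene best known from liver, was at the limit of detection. It had 0 to 4 counts per library, 5 over all Sham and 6 over all DHCA, and did not pass the filter. A total of 4 of the 5 Sham counts came from Sham 1 (1.55 CPM). Sham 3 and 5 DHCA libraries had 1 or 2 counts, and the remaining 5 libraries had 0. No fold is given, since 3 counts stand for 0.22 to 2.00 CPM depending on the library. By the counted models, the next gene at higher coordinates than IGFBP3 is the adenylate cyclase gene ADCY1. It lies 15601 bases from the end of the counted IGFBP3 model and averaged 336 ± 169 CPM over Sham and 299 ± 101 CPM over DHCA.

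IGFBP2 and IGFBP5 are also neighbours, 5434 bases apart on chromosome 15 and on opposite strands. IGFBP2 (ENSSSCG00000035392, 118822009 to 118852036), a binding protein abundant in the fetal and newborn brain, ran from 6.91 through a median of 12.7 to 24.04 CPM in Sham and from 6.15 through 10.1 to 14.5 CPM in DHCA. Sham 1 was the highest library, and the other 11 lay between 6.15 and 14.5 CPM. The log2 fold change was -0.35 (SE 0.29, edgeR adjusted p = 0.811), and -0.10 without Sham 1.

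IGFBP5 (ENSSSCG00000025924, 118857471 to 118878593), a binding protein that also attaches to the extracellular matrix, ran from 50.1 through 108 to 178 CPM in Sham and from 55.2 through 112 to 131 CPM in DHCA. The groups overlapped, and the library with the highest value was Sham 3. The log2 fold change was -0.14 (SE 0.28, edgeR adjusted p = 0.908). Without Sham 3 it was 0.051.

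IGFBP4 (ENSSSCG00000017472, chromosome 12, 21962639 to 21980945), which encodes a binding protein known as an inhibitor of growth factor action until it is cut by the protease PAPPA, ran from 12.6 through 21.0 to 44.98 CPM in Sham and from 19.7 through 31.6 to 47.3 CPM in DHCA. DHCA fell into 3 libraries at 40.9 to 47.3 CPM (DHCA 1, DHCA 2 and DHCA 4) and 3 at 19.7 to 22.4 CPM. In Sham, 5 libraries lay at or below 23.5 CPM and Sham 1 lay at 44.98 CPM. The log2 fold change was 0.50 (SE 0.32, edgeR adjusted p = 0.765), and without Sham 1 it was 0.78 (SE 0.27, adjusted p = 0.373). The same 3 DHCA libraries also had the highest IGFBP3 values.

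IGFBP6 (ENSSSCG00000000261, chromosome 5, 18353171 to 18357225), whose protein prefers IGF2, ran from 0 through a median of 2.21 to 5.83 CPM in Sham. The 0 was in Sham 5, where a level of up to 2.00 CPM is allowed by its depth. In DHCA it ran from 1.34 through 2.34 to 3.12 CPM. The highest Sham library was Sham 4, and the DHCA values lay within the Sham range. The log2 fold change was -0.25 (SE 0.48, edgeR adjusted p = 0.905), and 0.17 without Sham 4. It was also positive with limma-voom (0.20).

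IGFBP7 (ENSSSCG00000008913, chromosome 8, 56279895 to 56357881), which encodes a vessel-associated relative that binds insulin-like growth factors weakly, had the smallest SD relative to its mean of the tested members in both groups (14.4 of 76.3 CPM in Sham and 5.78 of 70.6 CPM in DHCA). It ran from 63.3 through a median of 74.5 to 103 CPM in Sham and from 62.9 through 70.4 to 77.3 CPM in DHCA. Sham 1, which also had the highest endothelial marker share (0.0615%), was the highest library. The log2 fold change was -0.11 (SE 0.15, edgeR adjusted p = 0.863), and -0.0087 without Sham 1. Of its 4373 exon bases, 747 are shared with exons of POLR2B on the other strand, and reads from those bases cannot be told apart.

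**Figure D3:**
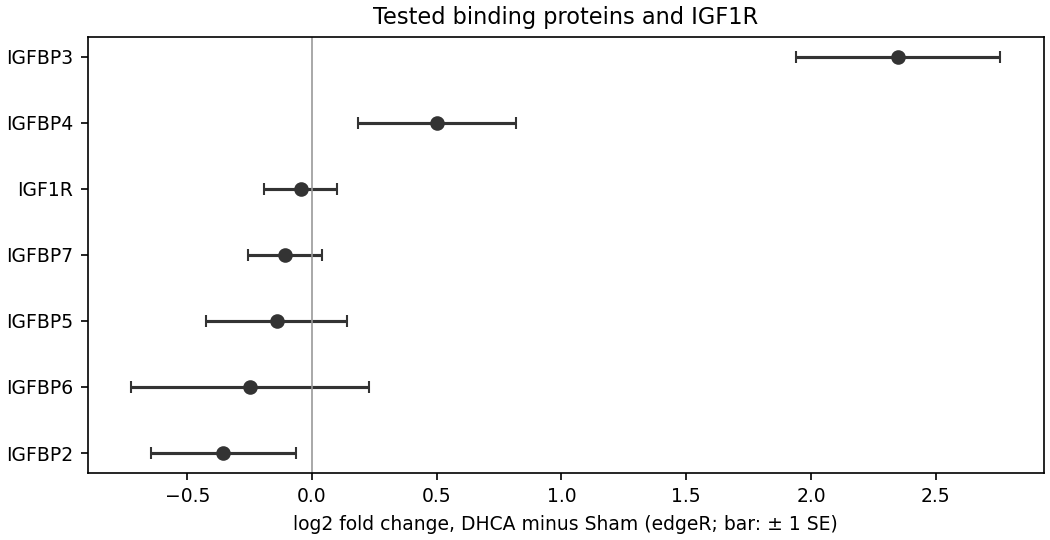
Log2 fold change, DHCA minus Sham, with bars of 1 SE on each side (horizontal axis), for the 6 tested binding protein genes and IGF1R (vertical axis). IGFBP3 lies at 2.35, IGFBP4 at 0.50 and the other 5 between -0.35 and -0.046.

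On a length scale, CPM per kb of counted exon, which allows levels of different genes to be compared, the order of the members in Sham began with IGFBP5 (18.0 ± 6.83, SD, n = 6) and IGFBP7 (17.4 ± 3.30). These neighbours in the order did not differ beyond their spread: IGFBP5 was above IGFBP7 in 3 of 6 Sham libraries. IGFBP2 (5.16 ± 2.39), IGFBP4 (4.56 ± 2.20), IGFBP3 (3.81 ± 3.15) and IGFBP6 (2.23 ± 1.85) followed, and each overlapped the next. IGFBP7 was above IGFBP2 in 6 of 6 Sham libraries, which set the first pair apart from the rest. IGF1 (0.638 ± 0.658) and IGFBP1 (0.298 ± 0.662) came last. Among the 14004 tested genes, a level like that of IGFBP5 or IGFBP7 in Sham lay at percentile 80.5 or 79.8, that of IGFBP3 at 31.8 and that of IGF1 at 3.41. IGF1R, at 14.4 ± 2.35 CPM per kb, lay at 74.8.

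In DHCA the order on the same scale began with IGFBP3 (20.7 ± 7.40), IGFBP5 (16.3 ± 4.99) and IGFBP7 (16.1 ± 1.32). These 3 overlapped, with IGFBP3 above IGFBP5 in 3 of 6 libraries. IGFBP4 (6.36 ± 2.45), IGFBP2 (3.94 ± 1.11), IGFBP6 (1.92 ± 0.532), IGF1 (0.268 ± 0.0623) and IGFBP1 (0.152 ± 0.111) followed, and IGFBP7, IGFBP4, IGFBP2, IGFBP6 and IGF1 stood in that order in 6 of 6 DHCA libraries. IGFBP3 ranked between 3 and 6 among the 8 members in Sham libraries and between 1 and 3 in DHCA libraries.

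As a share of the summed length-scaled level of the 8 members, IGFBP3 was 7.29 ± 5.48% in Sham and 31.0 ± 6.55% in DHCA (SD, n = 6 each). IGFBP5 was 34.4 ± 10.04% and 24.95 ± 7.18%, and IGFBP7 was 34.3 ± 6.47% and 25.1 ± 4.19%. A share falls when another member rises, and the IGFBP5 and IGFBP7 levels themselves gave log2 fold changes of -0.14 and -0.11. The sum over the 8 members was 52.1 ± 11.98 CPM per kb in Sham (32.8 to 67.7) and 65.8 ± 12.2 in DHCA (48.3 to 82.5). The ranges of that sum overlapped.

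**Figure D4:**
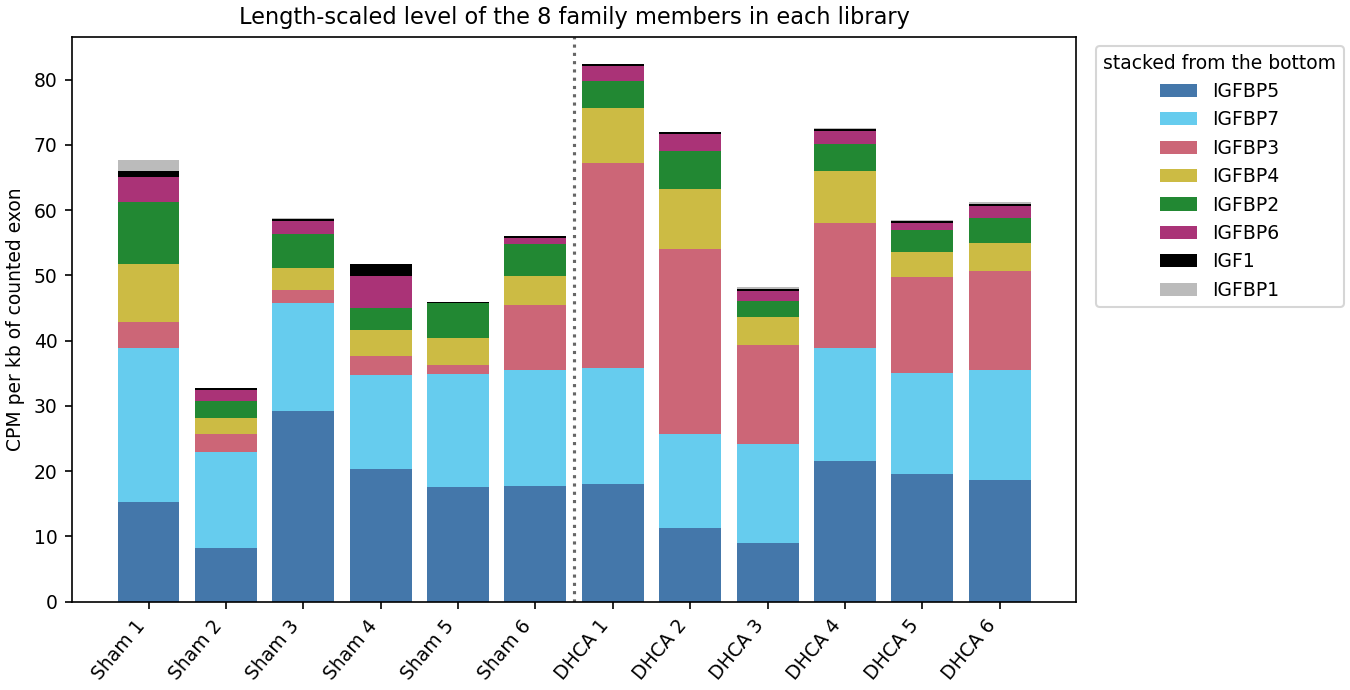
CPM per kb of counted exon (vertical axis) of the 8 members stacked for each library, Sham on the left and DHCA on the right of the dotted line. The IGFBP3 segment is 1.39 to 9.96 CPM per kb in Sham and 14.8 to 31.5 in DHCA, while IGFBP5 and IGFBP7 make up most of each Sham bar.

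The genes whose log2 CPM followed each tested member most closely over the 12 libraries were found among genes with a symbol and at least 5 CPM on average. They are described by Pearson's r, with no test, since the libraries share group and depth. For IGFBP3 they were PIK3AP1, an adaptor of PI3K signalling in immune cells (r = 0.962), the transglutaminase gene TGM3 (0.954) and the secreted phospholipase gene PLA2G3 (0.946). After each group's mean was removed, these were 0.814, 0.773 and 0.828. For IGFBP2 they were NUDT1, SPTB and ZNF385A (0.965, 0.957 and 0.956), and for IGFBP4 SORBS3, ZNF628 and TOP3B (0.943, 0.939 and 0.938).

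For IGFBP5 the closest were BOC, a receptor component of hedgehog signalling, the semaphorin receptor gene PLXNB2, and DDAH2 (0.918, 0.915 and 0.912). For these members the values stayed at 0.903 or above without Sham 1 and Sham 5. For IGFBP7 the closest were the tropomyosin gene TPM2, ODF2 and IMPDH1 (0.932, 0.909 and 0.898), which were 0.783, 0.68 and 0.676 without those libraries. For IGFBP6 they were SMAP1, AKIRIN2 and SAP30 (0.894, 0.892 and 0.875), which fell to 0.567, 0.507 and 0.454 without those libraries, so this likeness rests on Sham 1 and Sham 5, the latter with 0 IGFBP6 counts.

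The wider pathway was described by 8 lists, chosen with earlier results of these data known. The edgeR test called 1 gene in the list of IGFBP proteolysis and 0 in the other 7; DESeq2 counts are given where they are not 0. Of 15 tested genes of proteases that cut binding proteins and of their inhibitors, 1 rose and 0 fell in the edgeR test, beside 0.136% of all tested genes that rose. DESeq2 called 2 of them, beside 1.1% of genes. The list's median log2 fold change was 0.27, beside -0.003 over all tested genes. The gene that rose, PLAT, encodes tissue plasminogen activator, which acts mainly on plasminogen rather than on binding proteins directly. It ranged over 32.1 to 67.1 CPM in Sham libraries and 83.9 to 196 CPM in DHCA libraries, with edgeR adjusted p = 0.023.

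The PLAT call was kept in 6 of 12 fits without 1 library. In edgeR fits without 1 library, PLAT had adjusted p of 0.0746, 0.0672 and 0.0765 without Sham 3, Sham 4 and Sham 5, and of 0.065, 0.0638 and 0.0687 without DHCA 2, DHCA 3 and DHCA 4. Its log2 fold change was 1.53 (SE 0.24) with all libraries and 1.39 to 1.67 over the 12 fits without 1 library. Without Sham 1, Sham 4 and Sham 5 it was 1.42 (adjusted p = 0.275).

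The pappalysin proteases, which cut binding proteins, and the stanniocalcins, which inhibit PAPPA, did not pass the edgeR test; they are named for their role, after their values were seen. PAPPA, the protease of IGFBP4, averaged 9.59 ± 4.24 CPM over Sham and 15.5 ± 11.5 CPM over DHCA (log2 fold change 0.72, SE 0.45, edgeR adjusted p = 0.765), and without DHCA 3 the log2 fold change was 0.24. PAPPA2, which cuts IGFBP3 and IGFBP5, averaged 3.08 ± 1.42 and 2.56 ± 1.23 CPM (-0.17, SE 0.41, adjusted p = 0.929). STC2, a stanniocalcin, lay between 1.56 and 2.66 CPM in Sham and between 2.88 and 5.26 CPM in DHCA (1.00, SE 0.23, edgeR adjusted p = 0.138). Its groups did not overlap, beside 0.993% of all tested genes. STC1, the related inhibitor, was at 5.59 ± 2.92 and 3.53 ± 1.59 CPM (-0.70, SE 0.43, adjusted p = 0.762). STC2 had an adjusted p of 0.0253 with the DESeq2 Wald test and 0.017 with limma-voom and sample quality weights.

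Among receptors and adaptors, 0 of 12 tested genes passed (list median -0.046). An unadjusted p under 0.05 was reached by 2 higher genes and 0 lower ones, where 3.43% of all tested genes were higher and 4.47% lower. The insulin receptor gene INSR averaged 66.9 ± 10.3 CPM over Sham and 63.6 ± 6.02 CPM over DHCA, and IGF2R, which clears IGF2, 130 ± 45.5 and 126 ± 22.7 CPM; both were named for their role. IRS2, the insulin receptor substrate gene, had a log2 fold change of 0.82 (SE 0.26, edgeR adjusted p = 0.354), and PTPN1, a phosphatase of the insulin receptor, 0.62 (SE 0.20, adjusted p = 0.354). With limma-voom and sample quality weights IRS2 passed (1.0096, adjusted p = 0.0193).

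FOXO factors, whose proteins growth factor signalling through AKT holds down, and FOXO target genes had 0 of 15 tested genes called and a median of 0.38. The activity of FOXO proteins was not measured. Of the 15, 6 higher genes, IRS2 among them, and 0 lower ones reached an unadjusted p under 0.05. Among all tested genes 3.43% were higher and 4.47% lower at that threshold. IRS2 and INSR stand in the receptor list as well. TRIB1, a pseudokinase gene, lay between 12.02 and 20.1 CPM in Sham and between 24.5 and 45.2 CPM in DHCA (0.95, SE 0.19, edgeR adjusted p = 0.0689). PDK4, which restrains glucose oxidation, was at 58.6 ± 43.6 and 159 ± 46.4 CPM (1.42, SE 0.41, adjusted p = 0.275). The DESeq2 Wald test called 2 of the 15, TRIB1 (adjusted p = 0.000753) and PDK4 (0.0499), beside 1.1% of genes. With limma-voom and sample quality weights TRIB1 had an adjusted p of 0.0353. Without Sham 1, Sham 4 and Sham 5 the log2 fold change of PDK4 was 0.85.

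In the list of growth hormone signalling and other upstream regulators, 0 of 6 tested genes passed, with a median of 0.26. An unadjusted p under 0.05 was reached by 3 higher genes and 0 lower ones, beside 3.43% and 4.47% of all tested genes. CISH, a feedback inhibitor of cytokine receptors, had 1.17 (SE 0.30, edgeR adjusted p = 0.192) and the kinase gene JAK2 0.80 (SE 0.25, adjusted p = 0.354). DESeq2 called 1 of the 6, CISH (adjusted p = 0.0329), beside 1.1% of genes. Without Sham 1, Sham 4 and Sham 5 JAK2 had 0.44.

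In the PI3K, AKT and mTOR list, 0 of 18 tested genes passed and the median was 0.022. The 2 genes at an unadjusted p under 0.05 were DDIT4 and INPP5D, beside 3.43% of all tested genes higher and 4.47% lower. DDIT4, an inhibitor of mTOR, had 0.60 (SE 0.26, edgeR adjusted p = 0.588) and the phosphatase gene INPP5D -0.53 (SE 0.24, adjusted p = 0.6247). DDIT4 had 0.88 without Sham 1, and with limma-voom and sample quality weights it passed (0.92, adjusted p = 0.0303). Without Sham 1 and Sham 5 INPP5D had -0.24. In the RAS-MAPK list, 0 of 13 passed, 0 had an unadjusted p under 0.05 and the median was 0.094. BRAF had 0.40 (SE 0.24, edgeR adjusted p = 0.762) and HRAS -0.28 (SE 0.20, adjusted p = 0.784). BRAF had 0.24 without Sham 1, and without Sham 1 and Sham 5 BRAF had 0.14 and HRAS -0.14.

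Proteins related to the binding proteins gave 0 of 8 called and 0 at an unadjusted p under 0.05. Their median was 0.40, beside -0.003 over all tested genes. Of the 8, 7 were positive and 1 negative, beside 6935 positive and 7069 negative among all tested genes. HTRA1, a protease that carries a binding protein domain and stands in both this list and that of proteases, had 0.27 (SE 0.16, edgeR adjusted p = 0.755), and IGFALS, whose product joins the circulating IGFBP3 complex, -0.66 (SE 0.44, adjusted p = 0.776). Without Sham 1 HTRA1 had 0.16 and IGFALS -0.39, and without Sham 1, Sham 4 and Sham 5 IGFALS had -0.085. Of the list around IGF2 messenger RNA, 3 of 10 were tested and 0 passed, with 0 at an unadjusted p under 0.05. IGF2BP2 had -0.032 (SE 0.17, edgeR adjusted p = 0.971) and PLAG1, a transcription factor gene that activates IGF2, -0.49 (SE 0.30, adjusted p = 0.762).

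**Figure D5:**
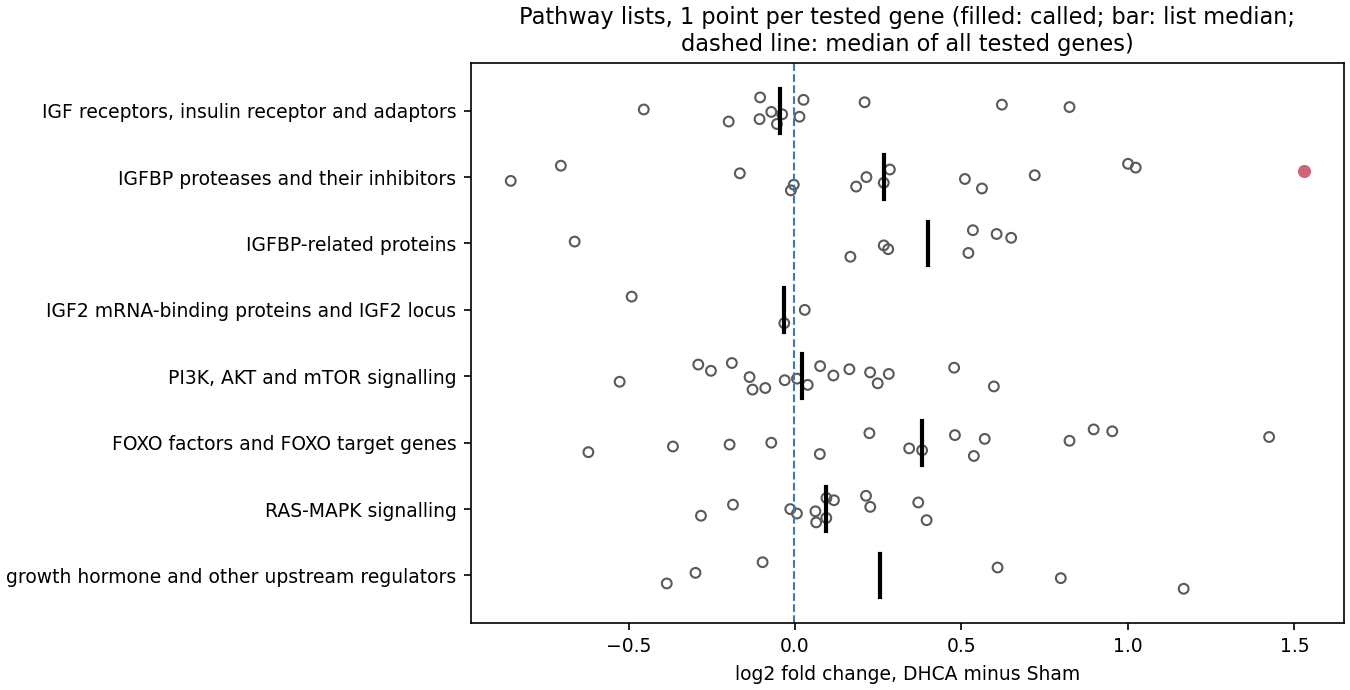
Log2 fold change, DHCA minus Sham (horizontal axis), of each tested gene in the 8 pathway lists (vertical axis), with the list median as a bar and the median of all tested genes as a dashed line. The filled point is PLAT at 1.53; the list medians lie between -0.046 and 0.40.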

How the data were processed

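Bulk RNA of 12 libraries labelled as striatum, 6 Sham and 6 DHCA by title, was counted by the authors. Each group held 6 piglets according to the series design, and p-values therefore measure the spread between animals. Per the file headers, the deposited counts are raw counts from featureCounts 1.5.1 over Sscrofa11.1 exons, with no strand option. Another 6 library columns match no sample and were not used. In the authors' deposited comparison table, per its header, columns hold a mean signal, log2 fold changes and their errors, a score used as test statistic, and p-values. Its fold changes follow the contrast used here (r = 0.967 across 14004 genes), while its test statistic has the opposite sign in all 21223 genes and was not used. The aligner behind the counts, and the counts behind that table, are not given in the sources used here.

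Genes were filtered with edgeR 4.0.16 (R 4.3.3) filterByExpr, scaled by TMM and tested with the quasi-likelihood F test on group, with Benjamini-Hochberg adjustment at 0.05; SE comes from the F statistic. CPM uses TMM-scaled library sizes. The floor of 3 counts covers counting error only. Alternatives were other scalings and filters, DESeq2 1.42.0, limma 3.58.1 (voom), a replicate block and leaving out libraries. Steps were tested on simulated data. The members, lists and alternatives were chosen with earlier results of these data known. Named genes are the members, each list's called genes or otherwise its 2 with the smallest p, 3 like genes and the adjacent genes of each tested member, and those said to be added; some adjacent genes are left out. An item of the protease list is not reported here and is in none of that list's values.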

Additional observations from a re-analysis of the deposited data

Results flagged for a closer look

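Dixon's criterion was applied to 58 groups of 6 libraries (members, IGF1R and the named pathway genes). In 8 of these groups, a library's gap to the nearest other was large against the whole range of the group. Chance gives about 1 in 20 for normal, independent values. The groups share libraries and some hold few counts, so 8 of 58 cannot be set against that rate. Sham 1, with 4.01% mitochondrial counts, was the distant library in 6 of the 8 groups. It stood high for IGFBP1 (1.55 CPM from 4 counts, against 0 to 0.135 in the other Sham libraries), IGFBP2 (24.04 CPM against 6.91 to 13.3), IGFBP4 (44.98 CPM against 12.6 to 23.5), IGFBP7 (103 CPM against 63.3 to 77.7) and DDIT4 (57.8 CPM against 22.2 to 28.6), and low for TRIB1 (12.02 CPM against 17.6 to 20.1). IGFBP3 was distant in Sham 6 (14.3 CPM from 195 counts, against 2.00 to 5.82). STC1 was distant in DHCA 6 (6.595 CPM against 2.13 to 3.73).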

How the results depend on the processing

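Of the 115 log2 fold changes of the other 5 tested members under alternatives, 0 were called, and IGFBP3 was called in 10 of 23. Depth limits IGF1, IGFBP1 and IGFBP6 most, since 3 counts stand for up to 2.00 CPM in Sham 5. The 26 genes called by edgeR became 179 with DESeq2, 207 with voom quality weights, 6 at a threshold of 0.01, 12 without Sham 1 and Sham 5, 1 without Sham 1, Sham 4 and Sham 5, and 9 (without DHCA 2) to 51 (without Sham 2) without 1 library. Members called were 0 without either set of libraries and 0 to 1 without 1 library. Marker lists called were 0 to 3 without 1 library. Same-numbered deviations from the group means correlated between -0.388 and 0.338, and 0 libraries matched their own number best. The libraries differ in depth and mitochondrial share, so these values cannot decide whether the number in the titles pairs libraries. With that replicate block, 8 genes and 0 members were called; IGFBP3 had 2.63 (edgeR adjusted p = 0.0628), PLAT 1.52 (0.184), IGFBP6 0.016 and IGF2R 0.0019. Signs turned in these members and genes: IGFBP6 (0.20 with voom, 0.74 with quality weights, 0.36 without Sham 1, Sham 4 and Sham 5, -0.45 to 0.17 without 1 library), IGFBP5 (-0.30 to 0.051 without 1 library), IGFBP7 (0.019 without Sham 1 and Sham 5), IGF1R (0.0067 without those, -0.10 to 0.024 without 1 library), IGF2R (0.020 with voom, 0.21 with quality weights, 0.27 without Sham 1 and Sham 5, 0.30 without Sham 4 too, -0.15 to 0.15 without 1 library), INSR (0.045 without Sham 1, Sham 4 and Sham 5) and IGF2BP2 (-0.14 to 0.025 without 1 library). Marker share differences without 1 library are DHCA minus Sham in percent of the scaled library size. They ran from -0.000937 to 0.00365 (mural), -0.0016 to 0.00070 (ependyma), -0.721 to 0.545 (myelinating oligodendrocyte), -0.0513 to 0.0966 (spiny neuron) and -0.0034 to 0.00063 (interneuron). The causes were not tested.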
